A study of Mus musculus with 4 samples.

Results

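The genes described here are 8 rows of the count table with symbols of globin chains and of erythroid proteins, out of 23240 rows: Hba-a1, Hba-a2, Hba-x, Hbb-b1, Hbb-b2, Hbb-y, Alas2 and Slc4a1. They were chosen by symbol, but with earlier results of these data known, so the choice was not blind to the values. RNA-seq counts came from cells sorted from mouse cortex at embryonic day 15.5, as 2 libraries of neurons and 2 libraries of neural progenitor cells (NPCs). Embryos of both groups, from heterozygous Nestin-GFP and homozygous DCX-mRFP parents, carried a Nestin-GFP transgene, which the nestin promoter drives in progenitors, and a DCX-mRFP transgene, which the doublecortin promoter drives in young neurons. Neurons were sorted as cells with green and red fluorescence, and NPCs as cells with green fluorescence alone, after trituration of dissected cortices. Neither gate used a marker of blood cells, and the number of embryos per library and any step to remove blood are not given in the labels. The series concerns alternative splicing during neuronal differentiation, and the comparison of gene counts asks how expression differs between the 2 sorts.

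Hemoglobin, the oxygen carrier of red cells, is a tetramer of alpha-like and beta-like globin chains, each holding a heme group. In the mouse, Hba-x (zeta globin) and Hbb-y (epsilon-y globin) are transcribed mainly in primitive red cells of the yolk sac, which circulate in the embryo. Definitive red cells of the fetal liver transcribe the adult genes Hba-a1, Hba-a2, Hbb-b1 and Hbb-b2. The adult alpha genes are not confined to definitive red cells. Alas2 encodes the erythroid form of the first enzyme of heme synthesis, and Slc4a1 encodes band 3, the chloride-bicarbonate exchanger of the red cell membrane. Embryonic brain holds red cells in its vessels, and globin transcripts have also been described in some neurons and glia.

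The alpha-like genes, Hbb-y and Alas2 share short sequence features upstream of their starts that are known from erythroid genes. These are shown because all of these genes differed in the same direction. Each sequence is the 250 bases before the RefSeq start in build GRCm38.p6, 5′ to 3′ on the gene's strand. Capitals mark every match, on either strand, to the GATA motif (GATA with A or T before it and A or G after it), to CACCC, to CCAAT and to the TATA motif (TATAA followed by A or G).
Hba-a1 (chr11:32283422-32283671, plus strand): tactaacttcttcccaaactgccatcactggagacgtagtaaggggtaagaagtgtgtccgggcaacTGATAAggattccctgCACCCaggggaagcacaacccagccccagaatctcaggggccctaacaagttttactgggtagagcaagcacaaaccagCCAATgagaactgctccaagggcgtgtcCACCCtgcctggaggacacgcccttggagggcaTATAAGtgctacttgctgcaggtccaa
Hba-a2 (chr11:32296242-32296491, plus strand): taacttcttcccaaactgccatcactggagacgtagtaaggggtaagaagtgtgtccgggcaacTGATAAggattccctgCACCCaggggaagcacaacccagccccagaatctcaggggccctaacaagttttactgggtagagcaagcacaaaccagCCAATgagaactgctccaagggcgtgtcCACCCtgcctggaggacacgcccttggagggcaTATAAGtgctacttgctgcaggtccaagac
Hba-x (chr11:32276350-32276599, plus strand): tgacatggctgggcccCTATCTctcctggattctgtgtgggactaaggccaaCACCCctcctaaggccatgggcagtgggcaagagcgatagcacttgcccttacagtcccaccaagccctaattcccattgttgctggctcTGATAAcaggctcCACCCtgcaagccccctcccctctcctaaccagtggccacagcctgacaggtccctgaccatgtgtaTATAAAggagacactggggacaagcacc
Hbb-y (chr7:103853208-103853457, minus strand): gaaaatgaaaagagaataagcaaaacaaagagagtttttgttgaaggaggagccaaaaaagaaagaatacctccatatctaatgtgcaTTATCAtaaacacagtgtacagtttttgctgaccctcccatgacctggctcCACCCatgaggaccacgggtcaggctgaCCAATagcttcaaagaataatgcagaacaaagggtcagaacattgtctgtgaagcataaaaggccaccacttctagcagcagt
Alas2 (chrX:150547167-150547416, plus strand): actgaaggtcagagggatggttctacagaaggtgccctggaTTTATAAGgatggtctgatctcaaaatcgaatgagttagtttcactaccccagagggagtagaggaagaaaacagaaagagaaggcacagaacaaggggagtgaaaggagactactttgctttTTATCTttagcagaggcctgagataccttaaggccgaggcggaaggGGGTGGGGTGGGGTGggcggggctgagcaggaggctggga

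The GATA motif was present in all 5 windows, as it was in 26.5% of 32851 windows of the same length. CACCC was also present in all 5, against 52.0% of all windows, and both motifs together were present in 11.8% of all windows. CCAAT was present in the windows of Hba-a1, Hba-a2 and Hbb-y, against 33.8% of all windows. The TATA motif was present in those of Hba-a1, Hba-a2, Hba-x and Alas2, against 17.0% of all windows. In Hba-a1 the single GATA, CCAAT and TATA matches began 183, 88 and 27 bases before the start. In Hba-x the TATA match began 28 bases before the start, and in Alas2 2 TATA matches on opposite strands overlapped, beginning 209 and 207 bases before it. The windows of Hba-a1 and Hba-a2 held an identical run of 247 bases, so the tallies above count the same stretch more than once. These matches describe the letters of the windows and are not evidence of binding.

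The adult copies could not be measured apart. Hba-a1 and Hba-a2 differed by at most 0.752 counts in any library, and Hbb-b1 and Hbb-b2 by at most 9.02 counts. Of the 454 stretches of 1 read length in the GENCODE M21 transcript of Hba-a2, 337 (74.2%) occurred exactly in that of Hba-a1, with the read length that the deposited values imply. None of the 701 stretches of the Hba-x transcript occurred in that of Hba-a1. No difference between copies can be read from these rows, and the 8 rows amount to 6 distinct measurements. In the text below Hba-a1 stands for the adult alpha copies and Hbb-b1 for the adult beta copies.

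All 8 genes passed the filter on low counts, and all 8 were lower in neurons than in NPCs. Hba-x, with 6 and 16 counts in neurons, and Slc4a1, with 8 and 5.01, could pass that filter only through the NPC libraries. The filter thus favoured a lower level in neurons for these genes, and their direction adds little to the tallies below. The adult globins, Hbb-y and Alas2 had at least 70.0 counts in every library. Both neuron libraries lay below both NPC libraries for all 8, where this was so for 44.0% of the 15292 genes tested. At an adjusted p of 0.05, by the edgeR quasi-likelihood method and adjusted after Benjamini and Hochberg over all genes, 8 of 8 were called lower in neurons, against 36.9% of all genes tested. None of the 8 was higher in neurons, whereas 35.8% of all genes were called higher, 72.6% were called in either direction and 42.0% had both neuron libraries above both NPC libraries. All 8 were at least 2-fold lower, against 18.5% of all genes, and 5 were at least 4-fold lower, against 9.39% of all genes. Those 5 were Slc4a1 and both copies of each adult chain, so these tallies of rows count shared measurements more than once. All 6 distinct measurements were called lower. The median log2 change, neurons over NPCs, was -2.59 over the 8 rows and -2.29 over the 6 distinct measurements, beside -0.02 for all genes tested. In sorted bulk samples, fewer cells of a type and less RNA per cell cannot be told apart. The labels call the libraries duplicates without saying whether they came from separate litters, so the p-values measure only the spread of these libraries, and that spread may be technical.

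**Figure D1:**
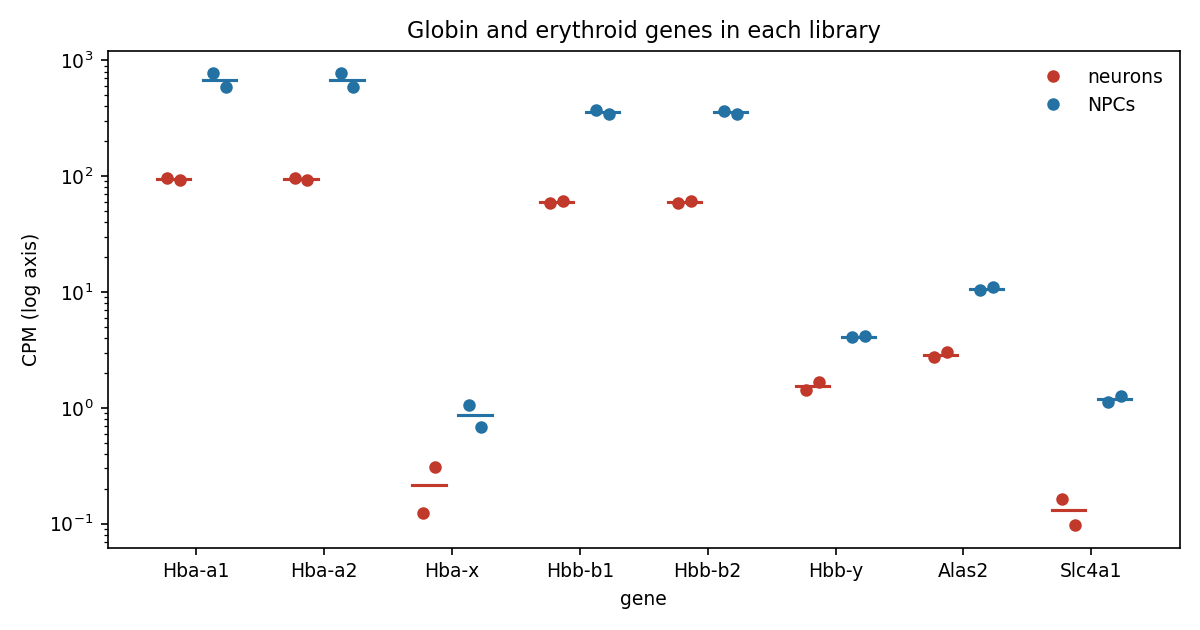
Level of each gene in each library, as CPM on a log axis, with neurons in red left of NPCs in blue; points are libraries and bars are means of 2. For all 8 genes both neuron libraries lie below both NPC libraries, with Hba-a1 at 97.4 and 92.1 CPM in neurons and 772 and 591 CPM in NPCs.

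Adult alpha globin was the gene with the highest CPM of the group. Hba-a1 was at 97.4 and 92.1 CPM (counts scaled to a common library size) in the neuron libraries, against 772 and 591 CPM in the NPC libraries. The neuron duplicates lay close together while the NPC duplicates were far apart, and the groups did not overlap. The means were 94.7 ± 3.74 CPM in neurons and 682 ± 128 CPM in NPCs (SD, n = 2 each), and the neuron mean was 13.9% of the NPC mean. The log2 change was -2.85 ± 0.09 (standard error, edgeR adjusted p = 8.3e-14). Of all genes tested, 4.36% had a lower log2 change.

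Adult beta globin, the partner chain, followed. Hbb-b1 was at 58.5 and 60.6 CPM in neurons, against 369 and 347 CPM in NPCs. Here both pairs of duplicates were close and the groups did not overlap. The neuron mean of 59.5 ± 1.46 CPM was 16.6% of the NPC mean of 358 ± 16 CPM (SD, n = 2 each), or -2.59 ± 0.06 on the log2 scale (edgeR adjusted p = 1.9e-15).

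The embryonic chains had low counts. Hbb-y was at 1.43 and 1.69 CPM in neurons (70.0 and 87.0 counts), against 4.06 and 4.17 CPM in NPCs (234 and 249 counts). The groups did not overlap, and the log2 change of -1.40 ± 0.18 was the smallest in size of the 8 (edgeR adjusted p = 2.7e-06). Hba-x was at 0.123 and 0.310 CPM in neurons, which are 6 and 16 counts, against 1.06 and 0.687 CPM in NPCs, which are 61.3 and 41.0 counts. Its duplicates were apart in both groups without overlap between groups. The log2 change of Hba-x was -1.99 ± 0.45 (edgeR adjusted p = 0.00082), and it was -2.80 without neuron replicate 2 and -1.47 without neuron replicate 1. Another embryonic chain, Hbb-bh1, named after its counts were seen, had 0 counts in both neuron libraries, against 9 and 1 counts in NPCs, and was not tested.

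The heme enzyme and the membrane exchanger were lower in neurons too. Alas2 was at 2.72 and 3.04 CPM in neurons, against 10.4 and 11.0 CPM in NPCs, with close duplicates in both groups. Its neuron mean was 27.0% of its NPC mean, and its log2 change was -1.89 ± 0.13 (edgeR adjusted p = 8.4e-10). Slc4a1 was at 0.164 and 0.0971 CPM in neurons, which are 8 and 5.01 counts, against 1.13 and 1.27 CPM in NPCs, which are 65.0 and 76.0 counts. These groups did not overlap, and the log2 change of -3.19 ± 0.41 was the largest in size of the 8 (edgeR adjusted p = 2.9e-06). With under 10 counts in each neuron library, the size of the Slc4a1 difference is less certain than that of the adult globins.

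Levels were compared between genes per kilobase of GENCODE M21 transcript, as mean CPM per kilobase. The adult alpha rows stood highest, Hba-a1 at 136 in neurons and 975 in NPCs and Hba-a2, with the same counts on a shorter transcript, at 171 in neurons and 1230 in NPCs. No transcript of the adult beta genes was matched. Hbb-y came next, at 2.46 in neurons and 6.51 in NPCs, and then Alas2, at 1.41 in neurons and 5.25 in NPCs. Hba-x was at 0.270 in neurons and 1.09 in NPCs, and Slc4a1 was lowest, at 0.0287 in neurons and 0.264 in NPCs. Within each group, the libraries of neighbouring genes in this order, taking Hba-a1 for the alpha copies, did not overlap. The 4 distinct globin measurements (adult copies once) made up 0.0146% and 0.0144% of counts in the neuron libraries, against 0.123% and 0.101% in the NPC libraries.

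The embryonic chain Hbb-y made up a larger share of beta-like globin counts in both neuron libraries than in either NPC library, a measure within a library that does not depend on scaling. The share of Hbb-y in the counts of Hbb-y, Hbb-b1 and Hbb-b2 was 1.21% (0.96 to 1.53%) and 1.37% (1.11 to 1.69%) in neurons, against 0.548% (0.482 to 0.622%) and 0.599% (0.529 to 0.677%) in NPCs, with 95% Wilson intervals that cover counting error only. The intervals of the neuron libraries lay above those of the NPC libraries. The neuron mean of 1.29 ± 0.114% was 2.25 times the NPC mean of 0.573 ± 0.036% (SD, n = 2 each), with an exact permutation p of 0.33, two-sided, the smallest that 2 against 2 libraries can give. With the adult beta copies taken once, the shares were 2.55% in neurons and 1.14% in NPCs. The share of Hba-x in alpha-like counts, adult copies taken once, was 0.126% and 0.335% in neurons, against 0.138% and 0.116% in NPCs. For Hba-x the groups overlapped (exact permutation p = 0.667, two-sided, n = 2 each), at 6 to 61.3 counts per library.

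**Figure D2:**
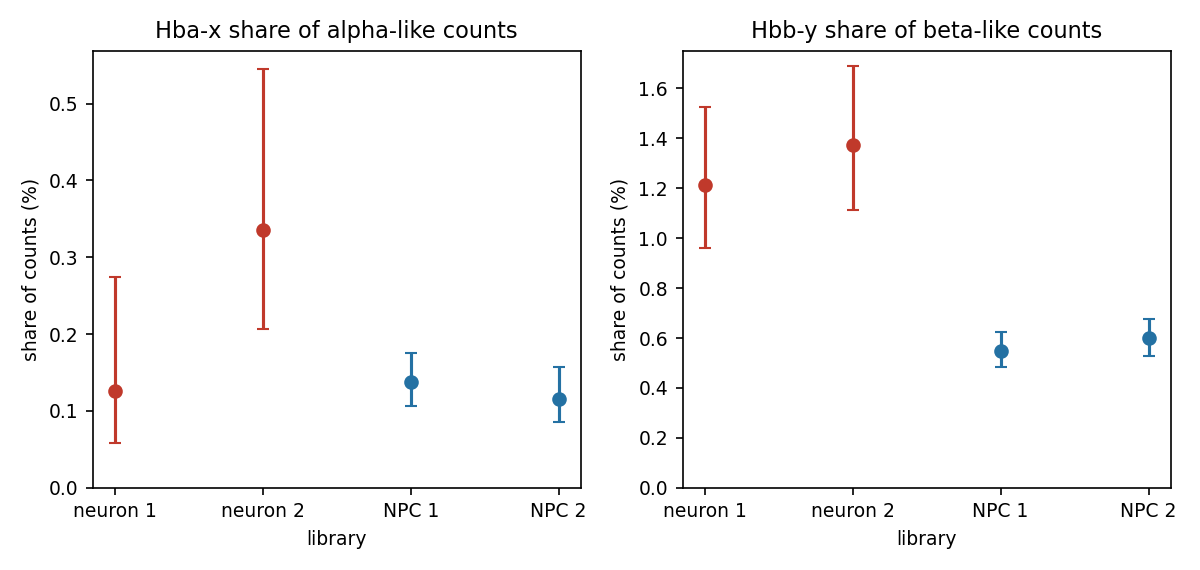
Share of embryonic globin counts in each library, in percent, for Hba-x among alpha-like counts with the adult copies taken once (left) and Hbb-y among beta-like counts with both adult copies summed (right), so that the panels have different denominators, with neurons in red and NPCs in blue; bars are 95% Wilson intervals. The Hbb-y share is 1.21% and 1.37% in neurons and 0.548% and 0.599% in NPCs, while the Hba-x shares overlap.

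Ratios to adult beta globin were also taken within each library. Hba-a1 counts were 1.66 and 1.52 times those of Hbb-b1 in neurons, against 2.09 and 1.71 times in NPCs, so that NPC replicate 2 lay close to neuron replicate 1. For every 100 counts of Hbb-b1 there were 4.66 and 5.02 counts of Alas2 in neurons, against 2.81 and 3.17 in NPCs, so that the mean ratio of the heme enzyme to globin was 1.62 times as high in neurons. Slc4a1 had 0.280 and 0.160 counts per 100 of Hbb-b1 in neurons, against 0.306 and 0.368 in NPCs, but the neuron values rest on 8 and 5.01 counts. None of these 3 ratios overlapped between groups, and each had an exact permutation p of 0.33, two-sided (n = 2 each), which is the smallest possible and could not have passed a threshold of 0.05.

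**Figure D3:**
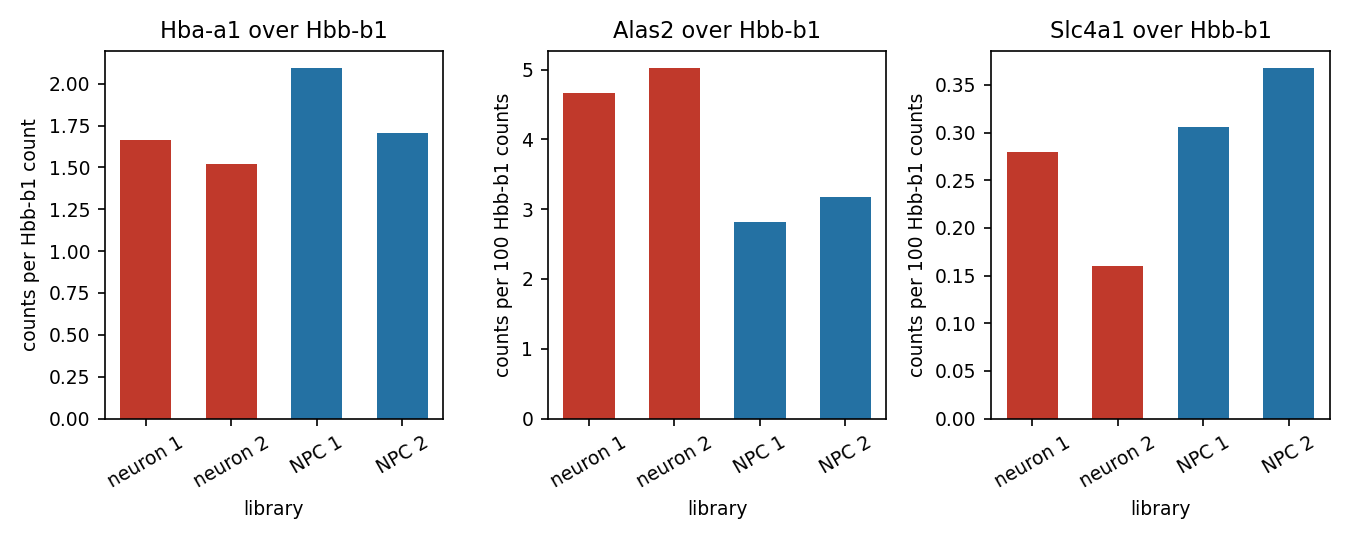
Counts of Hba-a1, Alas2 and Slc4a1 relative to those of Hbb-b1 in each library, with neurons in red left of NPCs in blue. Alas2 stands at 4.66 and 5.02 per 100 Hbb-b1 counts in neurons and 2.81 and 3.17 in NPCs, while Hba-a1 and Slc4a1 are lower in neurons by this measure.

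The adult alpha copies differed more between the NPC duplicates than other genes of their level did. Hba-a1 was 1.31 times as high in NPC replicate 1 as in NPC replicate 2, a log2 ratio of 0.39. Among 4793 rows with a mean of at least 50 CPM, 1 row had a larger gap between these duplicates, and that row was Hba-a2. The median gap in size was 0.04 and 95% of rows lay under 0.13 on the log2 scale. Hbb-b1 differed by 1.07 times between the same libraries. In neurons the gap of Hba-a1 was 0.08, and 2132 rows had a larger one. The log2 change of Hba-a1 between groups was -2.64 without NPC replicate 1 and -3.03 without NPC replicate 2.

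**Figure D4:**
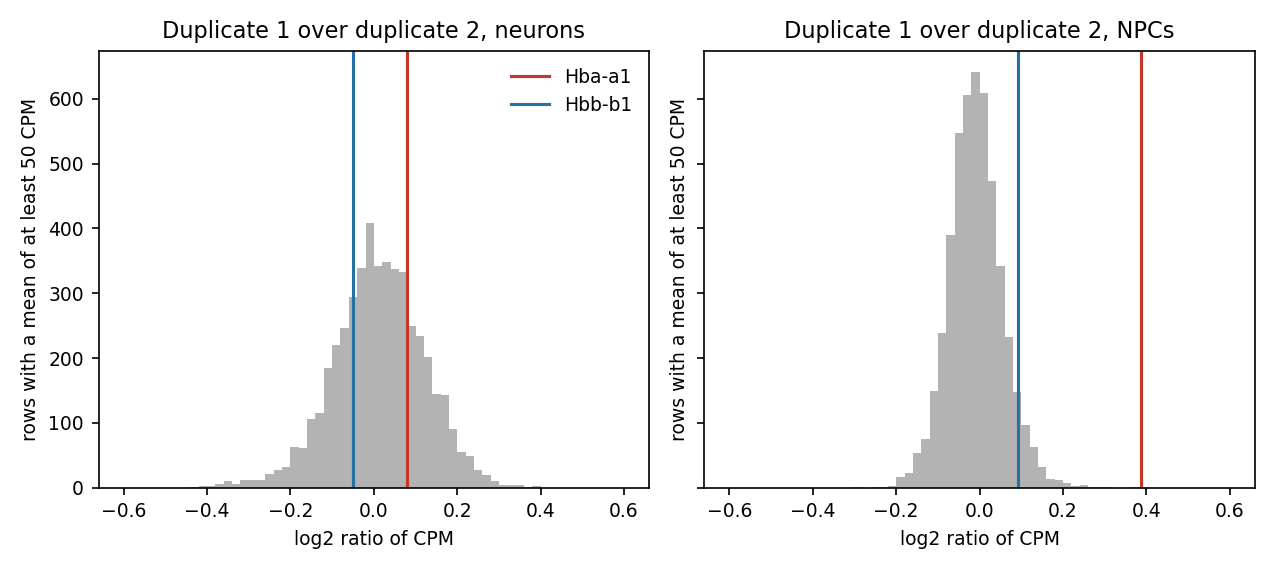
Distribution of the log2 ratio of CPM between duplicates 1 and 2 over 4793 rows with a mean of at least 50 CPM, in neurons (left) and NPCs (right), with Hba-a1 in red and Hbb-b1 in blue. In NPCs Hba-a1 lies at 0.39, outside the bulk of rows, and Hbb-b1 at 0.09.

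Genes with a profile over the 4 libraries most like that of Hba-a1 were sought among 13103 others with a mean of at least 1 CPM. Likeness was the root mean square difference of log2(CPM + 0.1) values centred on each gene's mean. The nearest were Prrx2 at 0.03, Pdlim2 at 0.06, Hhipl1 at 0.08, C1qtnf6 at 0.09 and Cd44 at 0.10. Prrx2 was at 0.551 and 0.543 CPM in neurons, against 5.03 and 3.92 CPM in NPCs. It was also higher in NPC replicate 1 than in NPC replicate 2, but the search used that gap, so this is no separate result. Counts in neurons were low, at 26.9 and 28.0 for Prrx2 and 10 and 7.62 for Hhipl1. Hbb-b1 stood at 0.17 by this measure, with 61 non-member genes nearer to Hba-a1 than it, Slc4a1 at 0.28, Alas2 at 0.52, Hba-x at 0.68 and Hbb-y at 0.76.

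Other genes of the red cell lineage did not move as a block. Of 47 rows in lists of other hemoglobin chains, red cell membrane genes, erythroid transcription factors and other erythroid genes, 35 were tested. Of these, 16 were lower in neurons (45.7%, against 36.9% of all genes), 9 were higher and 10 did not pass. Their median log2 change was -0.16, beside -0.02 for all genes tested. Many of these genes are also known outside red cells. With a filter of 5 CPM, 8 were called lower in neurons.

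Regulators of erythroid transcription were more often lower than higher in neurons. Of 8 tested, 5 were lower in neurons (62.5%, against 36.9% of all genes), 2 were higher and 1 did not pass. Their median log2 change was -1.11. Lmo2, a bridging factor of blood and vessel progenitors, changed by -2.02 ± 0.12 on the log2 scale (edgeR adjusted p = 9.6e-11). Bcl11a, known as a repressor of fetal globin in human red cells and also as a factor of cortical neurons, was higher in neurons, at 512 and 515 CPM against 193 and 191 CPM in NPCs. Chosen after their values were seen, the erythroid factor genes Klf1 and Nfe2 were at 0.258 to 0.465 CPM and 0.278 to 0.389 CPM in neurons, against 0.735 to 0.965 CPM and 0.819 to 0.925 CPM in NPCs. Both were called lower in neurons, although the call of Klf1 was lost with DESeq2 (adjusted p = 0.053), without neuron replicate 1 (0.087) and without NPC replicate 2 (0.092). Gata1, the leading erythroid factor and also named after its counts were seen, had 2 and 0 counts in neurons, against 13 and 8 counts in NPCs, and did not pass the filter. To complete the tested list, Tal1 and Myb were also called lower in neurons. Ldb1 was called higher (log2 change 0.27 ± 0.06, edgeR adjusted p = 0.00037), and Zfpm1 did not pass (-0.13 ± 0.27, edgeR adjusted p = 0.69).

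Among 13 tested genes of the red cell membrane and its cytoskeleton, 4 were lower in neurons (30.8%, near the 36.9% of all genes), 4 were higher and 5 did not pass. Gypc, which encodes glycophorin C, was at 1.47 and 1.31 CPM in neurons, against 11.5 and 12.9 CPM in NPCs. Epb4.9, which encodes the actin-bundling protein dematin, was higher in neurons (log2 change 2.68 ± 0.13). The spectrin-binding gene Epb4.1 was at 155 and 156 CPM in neurons and 143 and 148 CPM in NPCs and did not pass.

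Of 13 other erythroid genes, 7 were lower in neurons (53.8%, against 36.9% of all genes), 2 were higher and 4 did not pass. Slc25a37 (mitoferrin), which carries iron into mitochondria for heme synthesis, was at 4.38 and 3.73 CPM in neurons, against 16 and 15.1 CPM in NPCs, a log2 change of -1.94 ± 0.12. That lies beside the -1.89 of Alas2. Mkrn1, a ubiquitin ligase gene, was higher in neurons (log2 change 1.27 ± 0.05), and Bnip3l, known for the clearance of mitochondria from maturing red cells, was at 361 and 337 CPM in neurons and 327 and 338 CPM in NPCs and did not pass. Epor, the erythropoietin receptor gene, named after its value was seen, was at 0.361 and 0.306 CPM in neurons, against 1.07 and 1.06 CPM in NPCs.

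Of 11 tested genes of heme synthesis, 5 were lower in neurons (45.5%, near the 36.9% of all genes), 2 were higher and 4 did not pass, with a median log2 change of -0.10 and Slc25a37 as the lowest. Alas1, the form of the first enzyme that other tissues use, was at 59.3 and 59.8 CPM in neurons and 54.9 and 58.7 CPM in NPCs and did not pass (0.07 ± 0.06, edgeR adjusted p = 0.32), although with library size as the only scaling it was called lower (-0.14, adjusted p = 0.046). Uros, which encodes a later enzyme, was higher in neurons (log2 change 0.64 ± 0.06). Of 11 tested genes of heme breakdown and iron handling, 5 were lower and 5 were higher in neurons (45.5% each), near the 36.9% and 35.8% of all genes. Slc40a1 (ferroportin), the iron exporter, had a log2 change of -4.07 ± 0.09, and the ferritin light chain gene Ftl1 one of 0.50 ± 0.06. Blvrb, a biliverdin reductase gene with high levels in red cells, was at 2.12 and 2.03 CPM in neurons, against 6.11 and 5.19 CPM in NPCs.

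The other globin genes tested were few. Cygb, which encodes cytoglobin, was at 9.51 and 9.17 CPM in neurons, against 1.98 and 1.48 CPM in NPCs, a log2 change of 2.43 ± 0.16. Hbq1b, a theta globin gene beside the alpha genes, was at 0.419 and 0.362 CPM in neurons, against 0.118 and 0.120 CPM in NPCs, a log2 change of 1.68 ± 0.51 (edgeR adjusted p = 0.007) that was not called by DESeq2 (adjusted p = 0.068). Ngb (neuroglobin), named after its value was seen, was at 0.224 and 0.123 CPM in neurons, against 0.386 and 0.251 CPM in NPCs, and did not pass (log2 change -0.89 ± 0.53, edgeR adjusted p = 0.14). Hbq1a, the sister gene of Hbq1b and likewise chosen after its value was seen, had 6 and 5 counts in neurons, against 8 and 6 counts in NPCs, and was not tested.

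Markers of other cells that the sorts could hold moved with the red cell genes. The 12 endothelial markers were all lower in neurons, at a summed 12.0 to 12.4 CPM in neurons against 275 to 282 CPM in NPCs. That neuron sum was 4.37% of the NPC sum, where the 6 distinct erythroid measurements summed to 15.1%. Of 7 tested markers of pericytes and mural cells, 6 were lower (85.7%, where 36.9% of all genes were lower). Their list summed to 9.05 to 9.56 CPM in neurons and 227 to 232 CPM in NPCs. All 10 markers of microglia and macrophages were lower, at 18.3 to 18.4 CPM in neurons and 38.2 to 38.6 CPM in NPCs, a neuron sum of 47.7% of the NPC sum. None of the endothelial, pericyte or microglial markers was at 0 in both neuron libraries. By these sums the red cell genes lay between endothelial and microglial markers, and nearer to the radial glia markers, at 20.3%. The red cell sum was mostly adult globin, and single genes ran from 10.9% for Slc4a1 to 37.9% for Hbb-y. The part of other cells in these results was not tested.

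Platelet and white cell markers were scarce. Of 7 tested markers of megakaryocytes and platelets, 5 were lower in neurons (71.4%, against 36.9% of all genes). Ppbp, a platelet chemokine gene, had 1 and 2 counts in neurons, against 50 and 53 counts in NPCs. Gp1bb was the exception, at 25.1 and 33.1 CPM in neurons, against 9.81 and 9.16 CPM in NPCs. Without Gp1bb the list summed to 1.23 and 1.47 CPM in neurons, against 4.85 and 4.62 CPM in NPCs. Other white blood cell markers summed to 0.13 and 0.210 CPM in neurons, against 0.608 and 0.852 CPM in NPCs, with 6 of 10 at 0 in both neuron libraries and 2 (Elane and Cpa3, named for that) at 0 in every library.

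**Figure D5:**
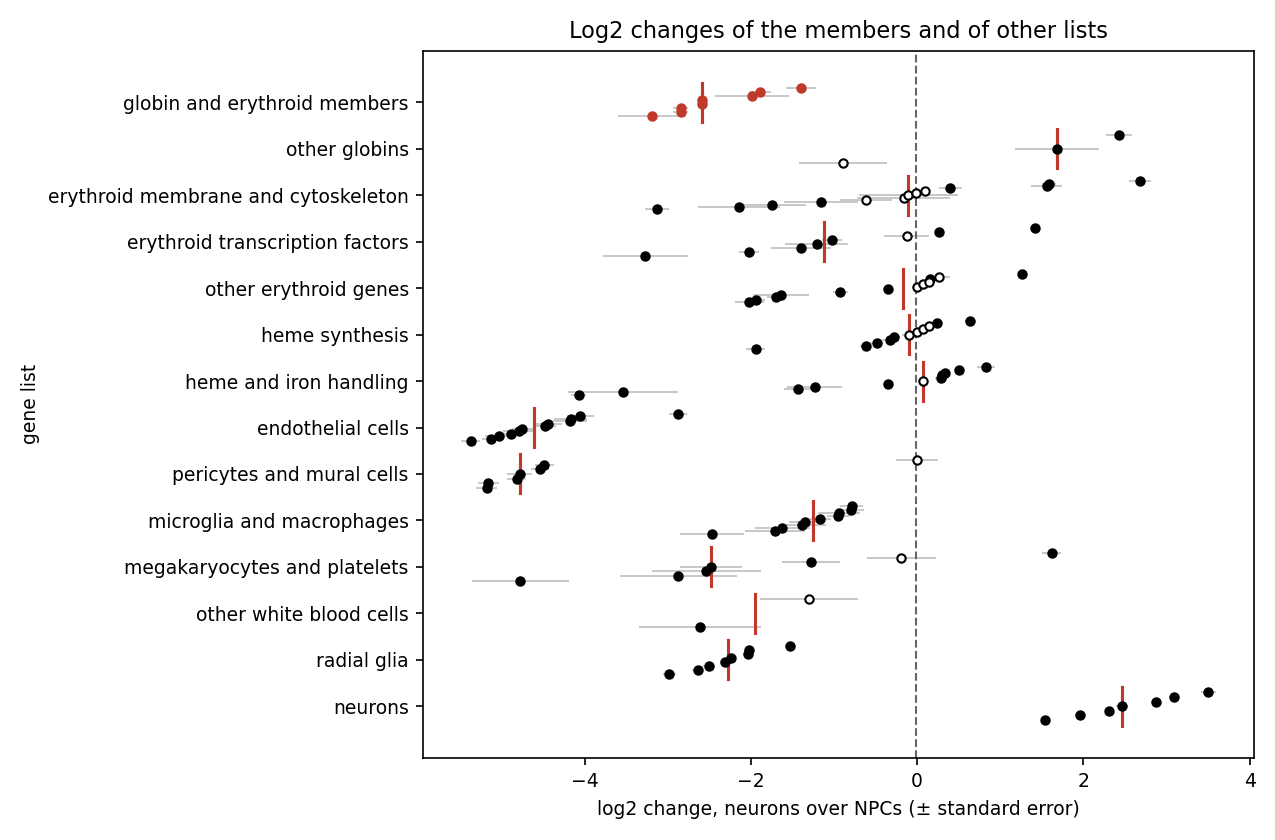
Log2 change, neurons over NPCs, with its standard error, for each tested gene of the 8 globin and erythroid rows (top, red) and of the other lists. Filled points passed an adjusted p of 0.05, open points did not, red bars are list medians, the dashed line is the median of all genes tested, and Cited4, at 0 in both neuron libraries, is left out. The 8 rows lie between -3.19 and -1.40, to the right of most endothelial and pericyte markers.

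The markers of the sorted cells went with the labels. All 8 radial glia markers were lower in neurons, with a median log2 change of -2.28, and all 7 tested neuronal markers were higher, with a median of 2.47. Total counts per library were 52611828 and 55329294 in neurons, against 53533953 and 55615142 in NPCs, so depth was close to equal between groups.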

How the data were processed

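Sorted neurons and NPCs of embryonic mouse cortex were measured by RNA-seq, with 2 libraries each. The authors deposited 1 table of 23240 rows with estimated counts, unscaled between libraries. All 65205 values above 0 and below 10000 were multiples of 1 base of a read of 101 bases, within 0.01 base. The submitters' processing notes name SAMtools 0.1.18, TopHat 1.2.0, CASAVA 1.9 and build mm9. What counted the reads, on which annotation and strand, and how reads with more than 1 alignment were treated is not given in the sources used here, so copies and overlapping genes are uncertain.

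Expected counts were rounded to whole numbers. Of the rows, filterByExpr kept 15292. TMM factors were 0.928 and 0.933 for neurons and 1.08 and 1.07 for NPCs. The 2 groups were set against each other in edgeR 4.0.16 (R 4.3.3) with its quasi-likelihood test, two-sided, unpaired, with Benjamini-Hochberg adjustment over all genes and a threshold of 0.05. The test was checked on simulated counts. Alternatives used limma 3.58.1, DESeq2 1.42.0, other scalings and filters, and fewer libraries. Group labels came from titles. Wilson intervals cover counting error only, because reads without molecular identifiers are not independent molecules. Promoter sequences are RefSeq's for GRCm38.p6, matched for 5 of the 8 genes.

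The 8 genes and the lists were chosen with earlier results of these data known. Named list genes were the 2 with the smallest p and the 1 with the highest mean CPM in each list, unless said otherwise, and not all are printed.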

Additional observations from a re-analysis of the deposited data

How the results depend on the processing

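All 8 genes stayed lower in neurons, and past the threshold, under each alternative in which they were tested: 3 other scalings, DESeq2, limma-voom, no filter, a filter of 5 CPM, near-equal copies kept once, counts divided by 2, each library left out in turn, and the replicate block. The filter of 5 CPM left 5 of the 8 tested, all 5 lower in neurons, and 8 other erythroid genes called lower. With a library left out, all 8 were called, with Hba-x from -2.80 to -1.47, Slc4a1 from -3.59 to -2.85 and Hba-a1 from -3.03 to -2.64. With the replicate block, Hba-x was at -1.98 and Slc4a1 at -3.19. Whether same-numbered libraries shared embryos or a sort is not given in the labels. The correlation of their deviations across genes was -0.01, which cannot settle it. Library size as the only scaling moved the median log2 change of all genes to -0.23, with 3840 genes higher and 7610 lower in neurons, against 5467 and 5641 with TMM. Upper-quartile factors moved it to -0.12. Genes that had not passed turned sign under these 2 scalings: Alas1 to -0.14 and -0.033, Bnip3l to -0.14 and -0.031, and Epb4.1 to -0.11 and -0.0061. With library size only, Alas1 (edgeR adjusted p = 0.046) and Bnip3l (0.031) were thereby called lower in neurons. Bnip3l was called higher without neuron replicate 2 (0.13, edgeR adjusted p = 0.0054) and Epb4.1 without neuron replicate 1 (0.11, edgeR adjusted p = 0.037). With adult alpha copies summed, the Hba-x share was 0.116% in neurons and 0.063% in NPCs. With adult beta copies taken once, the Hbb-y share was 2.55% in neurons and 1.14% in NPCs. Both choices change only the denominator, in the same way in every library. With 1 library left out, the share of its group is that of the remaining library, so this repeats the shares per library and tests nothing further. The Hba-x share ranged from 0.126 to 0.335% in neurons and 0.116 to 0.138% in NPCs. The Hbb-y share ranged from 1.21 to 1.37% in neurons and 0.548 to 0.599% in NPCs. Hba-x and Slc4a1 are limited by depth, with 5 to 16 counts in neuron libraries.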

Other observations

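The protein-coding genes next to the alpha globin cluster, the 3 nearest on each side by RefSeq order without predicted Gm genes, were lower in neurons in 2 of 6 cases, higher in 2 and did not pass in 2, where 36.9% of all genes were lower and 35.8% higher. This choice was made after the globin values were seen. On the side of Hba-x, Rhbdf1, a rhomboid family gene, was at 2.54 and 2.31 CPM in neurons, against 14.1 and 13.6 CPM in NPCs, a log2 change of -2.51 ± 0.12 (edgeR adjusted p = 1.2e-11). Mpg, a DNA glycosylase gene, was higher in neurons (log2 change 0.26 ± 0.07), a call that was lost with library size only (0.05), upper-quartile factors (0.16) and without NPC replicate 2 (0.23). Nprl3, whose introns hold the main enhancers of the alpha globin genes, was at 20.1 and 22.3 CPM in neurons and 23.3 and 24.6 CPM in NPCs, and did not pass (log2 change -0.18 ± 0.08, edgeR adjusted p = 0.061), although it was called lower with library size only (-0.38), upper-quartile factors (-0.28), a filter of 5 CPM (-0.21), the replicate block (-0.18) and without neuron replicate 2 (-0.24). On the other side, Ubtd2 was higher in neurons (log2 change 0.44 ± 0.05), Efcab9 did not pass, and the lower call of Sh3pxd2b (-0.19 ± 0.08) was lost with DESeq2 (-0.19) and without neuron replicate 1 (-0.09) or either NPC library (-0.20 each).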
